A study of Mus musculus with 12 samples.

Results

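The aryl hydrocarbon receptor genes and the Cyp1 genes were examined in liver RNA-seq libraries of 6 iTgMir483 and 6 Control mice. The set holds 7 genes of the 55401 in the count table, namely Ahr, Arnt, Ahrr, Tiparp, Cyp1a1, Cyp1a2 and Cyp1b1. They were chosen by name for their place in the receptor pathway, with earlier results of these data known. All 12 livers came from females aged 15 weeks on a C57BL/6J background, and the Control mice were littermates. iTgMir483 mice carry a Tet-off Mir483 transgene inserted at Rosa26, whose transactivator is switched off by doxycycline. A CMV-Cre that acts soon after fertilization in all tissues removes the Neo cassette to activate the transgene, so over-expression is not limited to hepatocytes. Doxycycline was given during pregnancy and then withdrawn, so that the transgene was active from birth. Whether each Control mouse carried Cre or an inactive transgene is not given in the sources used here. Mir483 is a microRNA gene within Igf2, and the question was how its over-expression from birth changed the liver transcriptome of the adult.

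The aryl hydrocarbon receptor (AhR, encoded by Ahr) is a ligand-activated transcription factor that waits in the cytoplasm in a complex with the chaperone HSP90 and its partners. On binding a planar aromatic ligand, such as a dioxin, a dietary indole or a tryptophan metabolite, it moves to the nucleus, pairs with ARNT and binds short DNA elements with the core GCGTG, called xenobiotic response elements. Its best known targets encode the P450 enzymes CYP1A1, CYP1A2 and CYP1B1, which oxidise aromatic compounds and many AhR ligands themselves, and the targets Ahrr and Tiparp encode repressors that limit the receptor. Hepatocytes around the central vein express Cyp1a2 without any inducer, whereas Cyp1a1 is low in uninduced liver, and Cyp1b1 is expressed mainly outside hepatocytes.

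In iTgMir483 livers Ahr was 1.36-fold lower and Cyp1a1 was 2.38-fold lower than in Control livers, and these were the 2 of 6 tested members that passed the test, where 7.33% of all 13205 genes tested were lower and 11.3% higher. No member was higher past the threshold. Arnt, Tiparp and Cyp1b1 did not pass, and Cyp1a2, by far the most abundant member, had a lower mean in iTgMir483 livers with a spread between mice too wide for the test to pass. Ahrr had too few reads to be tested with the other genes. Outside the members, the chaperone genes Hsp90aa1, Hsp90ab1 and Ptges3 and the tryptophan-degrading genes Tdo2, Kynu, Kmo and Kyat1 were lower in iTgMir483 livers, while Il4i1, which also acts on tryptophan, was higher. The calls of Hsp90ab1, Kmo and Il4i1 were lost in 9, 7 and 5 of the 12 fits that left out 1 library.

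Both arms of the over-expressed microRNA are shown first, because their seeds define which transcripts can carry a match. The seed, bases 2 to 8 of the mature RNA, is in capitals, and the sequences are from RefSeq (GRCm38.p6).
miR-483-3p, chr7:142654932-142654952, minus strand: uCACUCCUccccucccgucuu
miR-483-5p, chr7:142654968-142654989, minus strand: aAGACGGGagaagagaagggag
The longest annotated 3′ untranslated region of each member was searched for the complement of each seed. Ahr held 1 match to the miR-483-3p seed in 2715 bases, and the other 6 members held none, in 291 bases for Cyp1a2, 945 for Cyp1a1, 1847 for Arnt, 1953 for Tiparp, 2539 for Ahrr and 3140 for Cyp1b1. No member held a match to the miR-483-5p seed. Of the 12098 tested genes with an annotated 3′ untranslated region, whose median length was 1164 bases, 12.6% held a miR-483-3p match and 3.26% a miR-483-5p match. The Ahr match starts at base 1220 of the region and is in capitals in the stretch around it.
Ahr 3′ untranslated region, GRCm38, chr12:35499458-35499485, minus strand: atttttctcatatttgAGGAGTGttaag
A match is a description of the letters. Binding of miR-483-3p at this place was not measured, and the small RNAs themselves were not analysed here.

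The receptor's own DNA element was looked for in the 300 bases around the RefSeq start of each gene (GRCm38.p6), because several members are themselves AhR targets. Promoters were matched for 6 of the 7 members, all but Ahr. The core GCGTG, read on both strands, was present in 5 of these 6 promoters, once each in Arnt, Tiparp, Cyp1a1 and Cyp1b1 and at 3 places in Ahrr, and in none of the 300 bases of Cyp1a2. Of 32851 promoters of the same length, 32.4% held the core, 11.1% held it at 2 or more places, and 5.07% held the longer form TNGCGTG, which contains the core and which among the members occurred only in Ahrr. The stretches below show each core in capitals on the strand of the gene, with CACGC where the core lies on the other strand, and with the first base of the core counted from the RefSeq start.
Cyp1a1, core at -54, chr9:57697547-57697576, plus strand: tcagataaggagGCGTGgccaacagacaca
Cyp1b1, core at -76, chr17:79715120-79715149, minus strand: cgtcccgcccctCACGCcccaccccctaag
Tiparp, core at -170, chr3:65528265-65528294, plus strand: ctccgtccggagCACGCgcacgggaggcgg
Arnt, core at -29, chr3:95434349-95434378, plus strand: ccatagtttgggGCGTGtcttctgcccagg
Ahrr, core at -107, chr13:74292421-74292450, minus strand: tattgaaagggcGCGTGgcaggcagggaca
Ahrr, core at -82, chr13:74292396-74292425, minus strand: ggacaaggatgtGCGTGcgccctctgccgc
Ahrr, core at -27, in the longer form, chr13:74292341-74292370, minus strand: gcggggcggctcGCGTGctggggtggggct
The window is short, and elements farther away, which are known for Cyp1a1 and Cyp1a2, lie outside it.

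Values are counts per gene on the usual CPM scale, with library sizes adjusted by TMM, the trimmed mean of M-values (TMM CPM). Library totals ranged from 12244123 to 30431286 counts. The over-expressed gene Mir483 had 0 counts in every Control library and 318 to 761 in the iTgMir483 libraries. The replicate 1 library of each group stood apart from the other 10 on the second principal component, at 40.8 and 37.5 against 1.79 or less, and results on the members are given with and without them where they changed a call. The groups were compared with the edgeR quasi-likelihood F-test over 13205 genes, and a gene passed at a Benjamini-Hochberg adjusted p under 0.05. The p-values set the difference between the groups against the spread between these mice within a group.

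Markers of other liver cell types were not equal between the groups. Of 8 macrophage markers, 7 were higher in iTgMir483 livers in edgeR, 8 by DESeq2 and 5 by limma-voom. Their summed level was 287.8 to 414 TMM CPM in Control and 436.5 to 1255 in iTgMir483 libraries. Of 5 bile duct markers, 3 were higher (Krt7, Epcam and Spp1), with sums of 20.9 to 46.1 and 60.7 to 89.1. Most of these sums was Spp1, at 16.2 to 38.0 in Control and 52.0 to 77.1 in iTgMir483 libraries. Krt19 and Sox9 had log2 fold changes of 0.10 and 0.26 and did not pass (edgeR adjusted p = 0.825 and 0.425). Of 6 hepatocyte markers, 1 was lower (Cps1, which starts the urea cycle) and 0 were higher, with sums of 130400 to 177600 and 73930 to 142500, far above the sums of the other cell types in every library. Of 7 endothelial markers, 1 was higher (Pecam1), with sums of 292.5 to 346.2 and 271 to 388.3. Of 8 stellate cell markers 0 passed in edgeR, 2 were higher at an unadjusted p under 0.05, and 1 was higher by DESeq2 and by limma-voom, with sums of 321.9 to 440 and 373 to 469.6. Of 6 lymphocyte markers, 2 had enough reads to be tested and 0 passed in edgeR, DESeq2 or limma-voom, 1 being lower at an unadjusted p under 0.05, with sums of 4.21 to 7.65 and 2.84 to 4.85. In bulk liver, fewer cells of a type and less RNA per cell cannot be told apart, and the part of cell composition in the results on the members was not tested.

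Ahr (ENSMUSG00000019256, chr12:35497974-35535038, minus strand, GRCm38), the receptor gene, was measured from 398 to 1578 reads per library. In the 6 Control livers its level was 35.2 at the lowest, 49.7 at the median and 54.0 TMM CPM at the highest. In the 6 iTgMir483 livers it was 29.5, 34.3 and 40.4. All 6 iTgMir483 livers lay below the Control median and 3 lay below the lowest Control liver, so the groups overlapped through Control replicate 3. The log2 fold change was -0.44 ± 0.12 (SE, n = 6 per group, 95% interval -0.69 to -0.18, edgeR adjusted p = 0.0207), and the two-sided exact permutation test of mean log2 levels gave p = 0.0108. Without Control replicate 4 the log2 fold change was -0.40 (edgeR adjusted p = 0.0503), and without both replicate 1 libraries it was -0.51 (adjusted p = 0.0154). The difference was under 1.5-fold, and on CPM from library totals, without TMM, the difference in mean log2 levels was -0.29 (exact permutation p = 0.0693), where the median of all tested genes was 0.14. An antisense long noncoding RNA gene, Gm48236, shares 127 exon bases with Ahr, and the strand used for counting is not given in the sources used here.

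Arnt (ENSMUSG00000015522, chr3:95434388-95497240, plus strand) encodes the partner with which AhR binds DNA and which the hypoxia-inducible factors also use. Its level was 35.6, 42.5 and 46.9 TMM CPM (lowest, median, highest) in Control livers. In iTgMir483 livers it was 35.0, 49.7 and 60.2. Of the 6 iTgMir483 livers, 4 lay above the highest Control liver and replicate 2 lay below the lowest. The log2 fold change of 0.21 ± 0.12 (SE, n = 6 per group, 95% interval -0.04 to 0.45) did not pass (edgeR adjusted p = 0.23), while without iTgMir483 replicate 2 it was 0.29 and passed (adjusted p = 0.0487).

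Ahrr (ENSMUSG00000021575, chr13:74211118-74292331, minus strand), the receptor's repressor and feedback target, was near the limit of detection. It had 1 to 11 reads per Control library and 1 to 16 per iTgMir483 library, 25 and 41 reads in all, and fell below edgeR's count filter. Its level was 0.067, 0.252 and 0.376 TMM CPM in Control livers and 0.060, 0.402 and 1.24 in iTgMir483 livers. Of the 6 iTgMir483 livers, 3 lay above the highest Control liver and 1 below the lowest, and replicate 6 was the highest. The exact permutation test (two-sided, n = 6 per group) gave p = 0.121 for a difference of 0.40 in mean log2(TMM CPM + 0.5), and no difference was detectable at this depth.

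Tiparp (ENSMUSG00000034640, chr3:65528410-65555518, plus strand) encodes an ADP-ribosyltransferase that is induced by AhR and in turn represses it. Levels were 4.85, 6.89 and 8.78 TMM CPM in Control livers and 4.44, 8.44 and 11.4 in iTgMir483 livers. The groups overlapped, with 3 iTgMir483 livers above the highest Control liver and 1 below the lowest. The log2 fold change of 0.26 ± 0.21 (SE, n = 6 per group, 95% interval -0.19 to 0.71) did not pass (edgeR adjusted p = 0.412). An antisense pseudogene, 4931440P22Rik, shares 223 exon bases with Tiparp.

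Cyp1a1 (ENSMUSG00000032315, chr9:57687928-57703824, plus strand) encodes the P450 that is the usual readout of AhR activation, and it was low in every liver. It had 8 to 33 reads per Control library and 3 to 11 per iTgMir483 library, 116 and 42 reads in all. Its level was 0.558, 1.10 and 2.19 TMM CPM in Control livers. In iTgMir483 livers it was 0.232, 0.501 and 0.689. All 6 iTgMir483 livers lay below the Control median and 3 below the lowest Control liver, replicate 3, and Control replicate 6 was the highest of the 12. The log2 fold change was -1.25 ± 0.35 (SE, n = 6 per group, 95% interval -2.00 to -0.50, edgeR adjusted p = 0.0242), and the two-sided exact permutation test gave p = 0.00866. The call was lost by a narrow margin without iTgMir483 replicate 3 (log2 fold change -1.17, edgeR adjusted p = 0.055) or without iTgMir483 replicate 6 (-1.12, adjusted p = 0.0506). Without both replicate 1 libraries it held at -1.34 (adjusted p = 0.0339). With at least 10 reads demanded in every library the gene was not tested.

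Cyp1a2 (ENSMUSG00000032310, chr9:57676937-57683703, minus strand) encodes the constitutive hepatic member of the family, which oxidises caffeine, oestrogens and aromatic amines. It lies head to head with Cyp1a1, and the annotated bounds of both genes are separated by 4224 bases with 0 genes between. The RefSeq promoter of Cyp1a1 searched above (chr9:57697363-57697662) lies inside the bounds of Cyp1a1, farther from Cyp1a2 than that gap. Its level was 194.8, 298.4 and 962.8 TMM CPM in Control livers. In iTgMir483 livers it was 108, 169.3 and 628.8. The highest value of each group belonged to its replicate 1 library, while replicates 2 to 6 spanned 194.8 to 403.2 in Control and 108 to 284.7 in iTgMir483 livers. Of the 6 iTgMir483 livers, 4 lay below the lowest Control liver, so the groups overlapped through iTgMir483 replicates 1 and 4. Over all 12 libraries the log2 fold change of -0.71 ± 0.46 (SE, n = 6 per group, 95% interval -1.70 to 0.28) did not pass (edgeR adjusted p = 0.305).

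The Cyp1a2 value depended on the replicate 1 libraries. Without Control replicate 1 the log2 fold change was -0.24 (edgeR adjusted p = 0.704), and without iTgMir483 replicate 1 it was -1.25 (adjusted p = 0.0368). Without both it was -0.78 and passed (adjusted p = 0.0488), with 290 ± 77.0 TMM CPM (SD, n = 5) in Control and 169 ± 72.5 (SD, n = 5) in iTgMir483 livers. Leaving out any other single library gave values between -0.85 and -0.56, none of which passed.

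**Figure D1:**
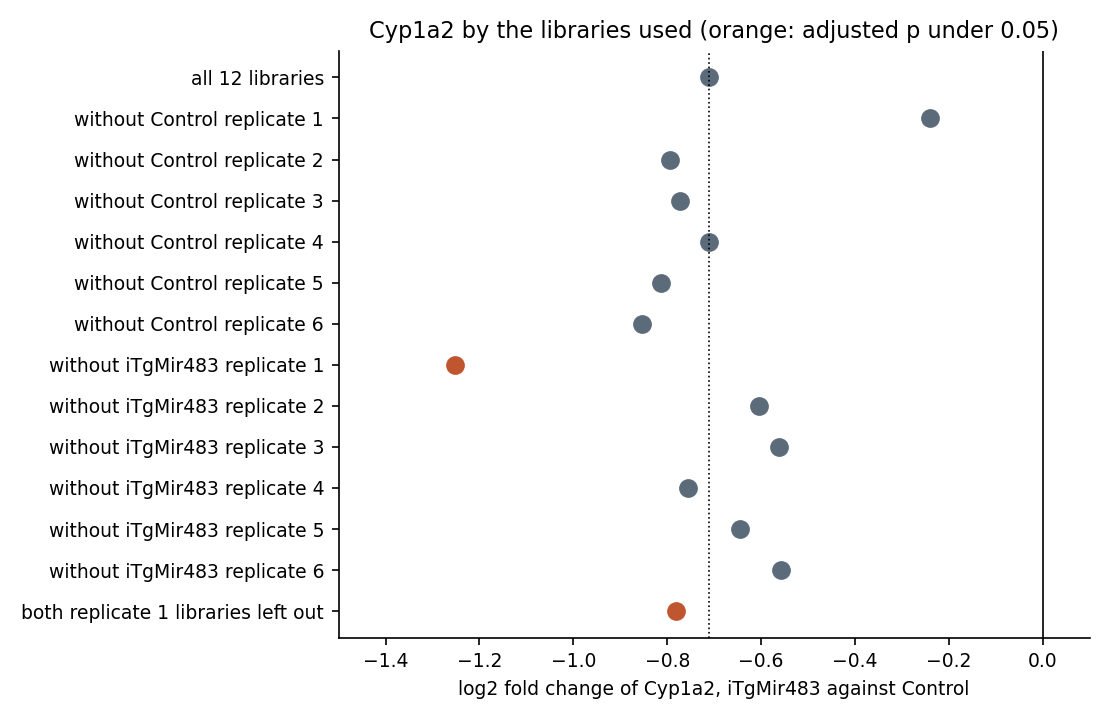
Log2 fold change of Cyp1a2 (x axis, iTgMir483 against Control) in edgeR fits on all 12 libraries and with libraries left out (y axis), orange where the adjusted p was under 0.05. All values lie below 0, from -1.25 without iTgMir483 replicate 1 to -0.24 without Control replicate 1, and the dotted line marks -0.71 over all libraries.

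Cyp1b1 (ENSMUSG00000024087, chr17:79701537-79715061, minus strand) encodes the mostly extrahepatic member of the family. It had 9 to 25 reads per Control library and 1 to 18 per iTgMir483 library. Levels were 0.697, 0.867 and 1.47 TMM CPM in Control livers and 0.073, 0.965 and 1.39 in iTgMir483 livers, where the lowest value was the 1 read of iTgMir483 replicate 1. The log2 fold change of -0.13 ± 0.38 (SE, n = 6 per group, 95% interval -0.95 to 0.70, edgeR adjusted p = 0.852) had no stable sign, since it was 0.11 without iTgMir483 replicate 1.

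**Figure D2:**
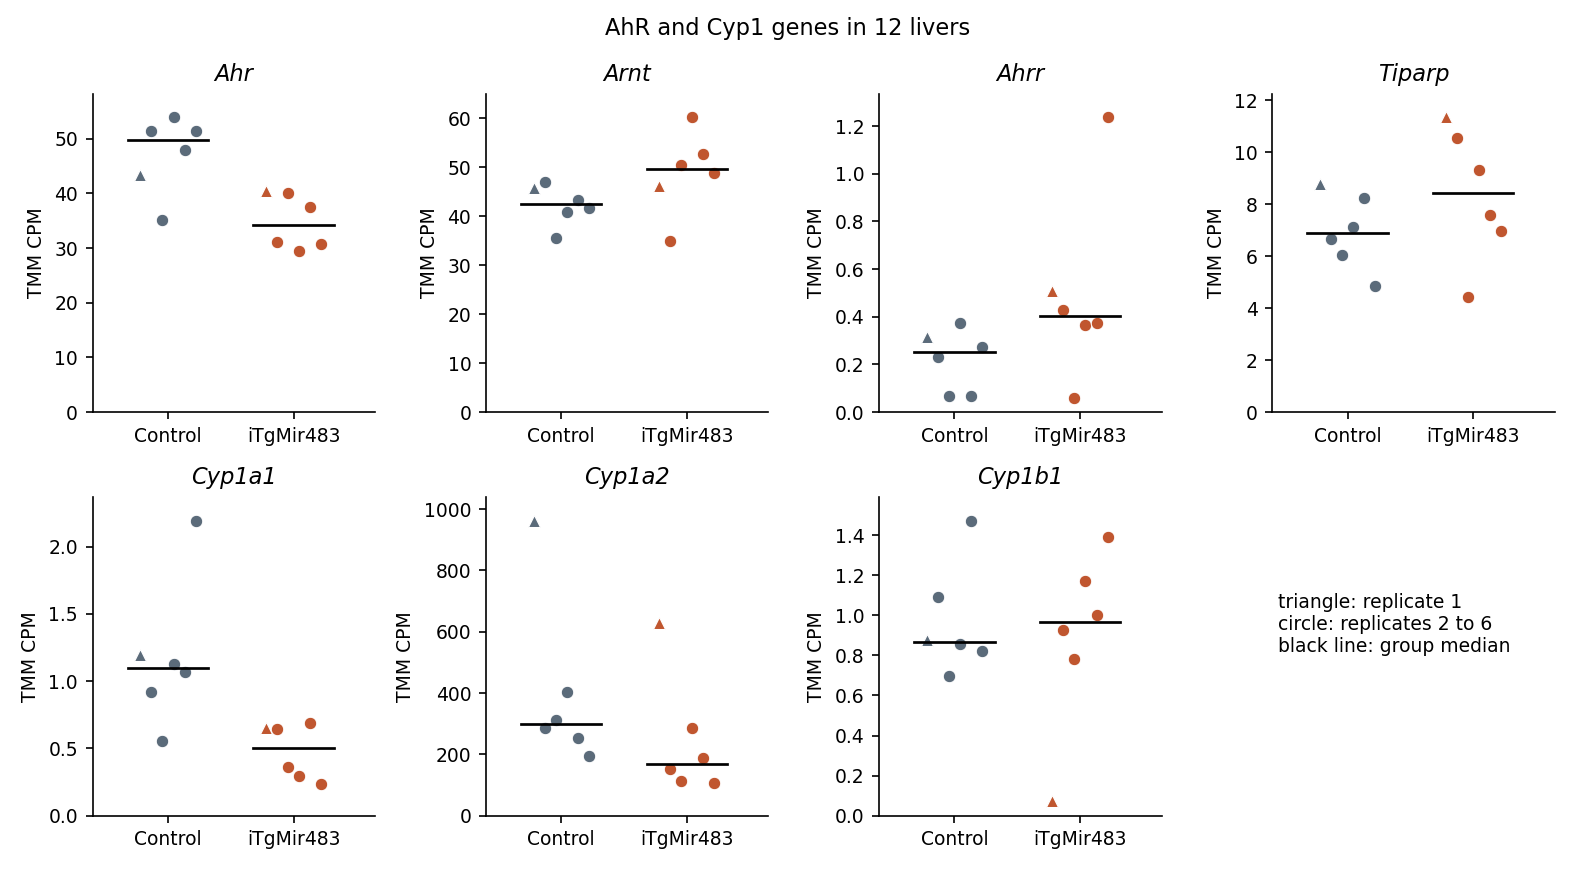
Level of each member (y axis, TMM CPM, linear from 0) in the 6 Control and 6 iTgMir483 livers, with triangles for replicate 1, circles for replicates 2 to 6 and a line at the median. Ahr and Cyp1a1 sit lower in iTgMir483 livers with overlapping groups, and the Cyp1a2 triangles at 962.8 and 628.8 lie far above the circles of their groups.

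Of the 6 members tested, 2 were lower and 0 higher, where 7.33% of all 13205 genes were lower and 11.3% higher. The count of 0 higher members was also 0 at an unadjusted p under 0.05 in edgeR, and 0 by DESeq2 and by limma-voom. At a fold change over 1.5 in addition, 1 of 6 was lower (Cyp1a1) and 0 higher, where 2.73% of all genes were lower and 8.41% higher. The groups did not overlap for 0 of the 6 members, while 2.83% of all genes had every iTgMir483 liver below every Control liver and 5.09% every iTgMir483 liver above. Without both replicate 1 libraries 3 of 6 members were lower (Ahr, Cyp1a1 and Cyp1a2) and 0 higher, where 8.2% of 13226 genes were lower and 12.4% higher. The median log2 fold change of the 6 members was -0.28, and that of all genes tested was 0.01.

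**Figure D3:**
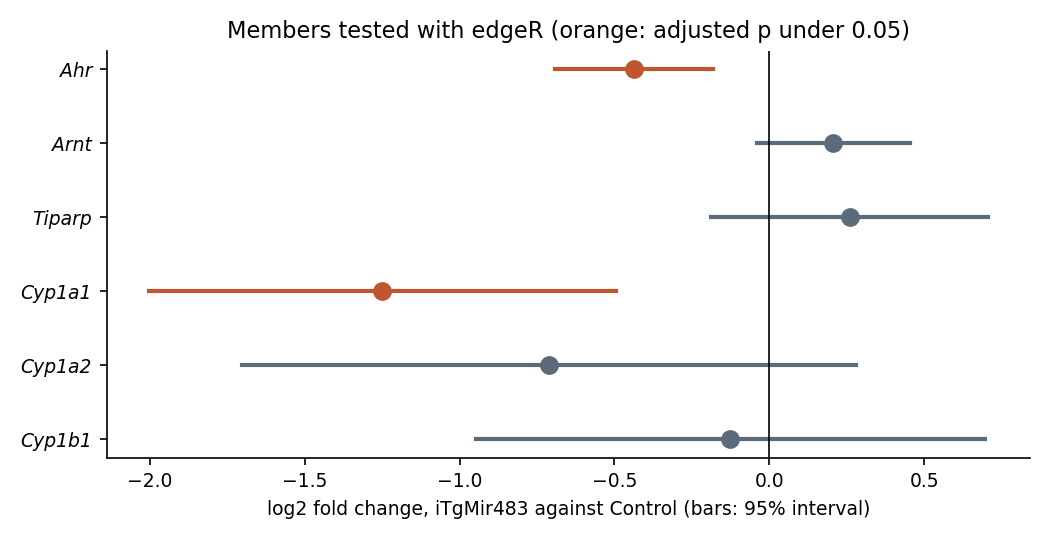
Log2 fold change of the 6 tested members (x axis, iTgMir483 against Control) with 95% intervals as bars, orange where the edgeR adjusted p was under 0.05. The intervals of Ahr (-0.69 to -0.18) and Cyp1a1 (-2.00 to -0.50) lie below 0, and those of the other 4 members include 0.

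The members spanned several orders of level, compared here per kilobase of exon. In Control livers Cyp1a2 had 200 ± 141 TMM CPM per kilobase (mean ± SD, n = 6), ahead of Ahr at 7.67 ± 1.13, Arnt at 5.29 ± 0.51, Tiparp at 1.60 ± 0.33, Cyp1a1 at 0.42 ± 0.20, Cyp1b1 at 0.17 ± 0.048 and Ahrr at 0.024 ± 0.014. Each of the first 6 was above its next lower neighbour in all 6 Control libraries, although across libraries the ranges of Ahr and Arnt, and of Cyp1a1 and Cyp1b1, overlapped. In iTgMir483 livers the level per kilobase was 122 ± 98.7 for Cyp1a2, 6.11 ± 1.04 for Arnt and 5.66 ± 0.81 for Ahr, so that the receptor and its partner were level, with Arnt the higher in 3 of 6 libraries. Tiparp followed at 1.92 ± 0.59, Cyp1a1 at 0.17 ± 0.074, Cyp1b1 at 0.15 ± 0.078 and Ahrr at 0.053 ± 0.042. Cyp1a1 exceeded Cyp1b1 in 3 of 6 iTgMir483 libraries, against 6 of 6 Control libraries.

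Within a library Cyp1a1 was always a small fraction of Cyp1a2. There were 1.24 to 11.3 reads of Cyp1a1 per 1000 reads of Cyp1a2 in Control livers (median 3.01) and 1.03 to 4.25 in iTgMir483 livers (median 2.68). The 2 genes are paralogs, and a small share of misassigned Cyp1a2 reads would weigh on Cyp1a1, which cannot be told apart in gene-level counts.

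For the 4 members with a mean count of at least 50, the genes with the most similar pattern were found over the 12 libraries after each group mean was subtracted, among 10551 genes. Each r below is Pearson's and is a description, since the libraries share depth and scaling. The 3 genes most like Ahr included Prkaa1 (r = 0.863, and 0.857 over the 10 libraries without replicate 1) and Ptges3 (0.848 and 0.867), the latter of which encodes the co-chaperone p23 of the AhR complex. Arnt was most like Ubr4 (0.959), Dync1h1 (0.957) and Stab2 (0.948), and Tiparp most like Vps4a (0.91), Aste1 (0.885) and Cdh13 (0.884). Cyp1a2 was most like Cyp2c29 (0.947, and 0.792 without replicate 1), Fam213b (0.943 and 0.781) and Birc3 (0.943 and 0.907), so that its likeness to the first 2 of these was lower once the replicate 1 libraries were left out.

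The rest of the pathway was read from 7 lists with 64 genes, 58 of which had enough reads to be tested. Of these 58, 3 were higher and 12 lower, with a median log2 fold change of -0.09, where 11.3% of all genes tested were higher and 7.33% lower. In 7 of the 58 every iTgMir483 liver was below every Control liver (2.83% of all genes), and in 1 every iTgMir483 liver was above (5.09%). At a fold change over 1.5 in addition, 2 were higher and 7 lower (8.41% and 2.73% of all genes). Without both replicate 1 libraries 8 were higher and 16 lower (12.4% and 8.2% of all genes). The counts of the single lists below stand against the same 11.3% higher and 7.33% lower.

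The chaperone complex holds the unliganded receptor in a shape that can bind ligand. Of its 4 genes, all tested, 3 were lower and 0 higher (median log2 fold change -0.50). Hsp90aa1, the inducible HSP90, was at 74.9, 148.1 and 217 TMM CPM (lowest, median, highest) in Control and 50.5, 76.6 and 93.3 in iTgMir483 livers, a log2 fold change of -1.03 ± 0.22 (SE, n = 6 per group, edgeR adjusted p = 0.00663). Control replicate 1 was the single Control liver within the iTgMir483 range. Ptges3, which encodes p23, was at 22.8, 28.6 and 34.1 in Control and 15.3, 19.5 and 22.2 in iTgMir483 livers, so the groups did not overlap, and its log2 fold change was -0.58 ± 0.13 (edgeR adjusted p = 0.00839). Hsp90ab1, the constitutive HSP90, changed by -0.43 ± 0.14 (edgeR adjusted p = 0.0463) and did not pass when any of 9 of the 12 libraries was left out.

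Relatives of AhR and ARNT share the basic helix-loop-helix and PAS domains and serve oxygen sensing and the circadian clock. Of 10 such genes, 7 were tested and none passed in either direction in edgeR, at an unadjusted p under 0.05 or by DESeq2 or limma-voom, with a median log2 fold change of -0.02. Hif1a, the oxygen-regulated partner of ARNT, had a log2 fold change of -0.02 ± 0.09 (95% interval -0.21 to 0.17). Clock, a core gene of the circadian clock, had -0.30 ± 0.14 (95% interval -0.60 to 0.01). Arntl and Npas2 varied widely between livers, from 3.85 to 19.9 and from 0.183 to 1.88 TMM CPM in Control livers alone. Sim1 and Sim2 had no reads in any library.

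Other genes that AhR ligands are known to move are the so-called battery genes and a few later additions. Of 13, 11 were tested, with 1 higher and 1 lower (median log2 fold change 0.32). Nqo1, a quinone reductase and classical battery gene, was 11.8 ± 2.67 and 12.1 ± 1.11 TMM CPM (mean ± SD, n = 6) with a log2 fold change of 0.04 (95% interval -0.26 to 0.35). Ugt1a6a and Ugt1a6b, which conjugate phenols and share exons, had log2 fold changes of -0.15 and -0.08, and neither passed. Aldh3a1 and Gsta1 had too few reads to be tested. The gene that was higher was Nfe2l2, which encodes the antioxidant regulator NRF2, at 0.36 ± 0.12 (edgeR adjusted p = 0.0406), and leaving out any of 10 of the 12 libraries took its call away.

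Tryptophan is converted to kynurenine and, by other enzymes, to indole acids, several of which are AhR ligands. Of 9 genes on this route, 8 were tested, with 4 lower and 1 higher (median log2 fold change -0.43). Tdo2, the liver enzyme that opens the ring of tryptophan, was at 1394, 2367 and 2608 TMM CPM in Control and 701, 1093 and 1157 in iTgMir483 livers. These groups did not overlap, and the log2 fold change was -1.14 ± 0.17 (SE, n = 6 per group, edgeR adjusted p = 0.000846). Kyat1, a kynurenine aminotransferase, was at 58.8, 69.3 and 122.3 in Control and 17.7, 23.3 and 34.1 in iTgMir483 livers, with a log2 fold change of -1.63 ± 0.21 (edgeR adjusted p = 0.000346). Kynu, which cleaves kynurenine, had a log2 fold change of -0.78 ± 0.13 (edgeR adjusted p = 0.00167), and the groups did not overlap for Kyat1 or Kynu. Kmo, which hydroxylates kynurenine, had -0.40 ± 0.12 (edgeR adjusted p = 0.0293) and did not pass when any of 7 of the 12 libraries was left out. Kyat3, also a kynurenine aminotransferase and more abundant than Kyat1, had 0.16 ± 0.12 and did not pass (edgeR adjusted p = 0.396). Its median was 199.8 TMM CPM in Control and 239.9 in iTgMir483 livers. Ido2 and Afmid had log2 fold changes of -0.46 and -0.34 and did not pass, and Ido1 had too few reads to be tested. Without iTgMir483 replicate 1 Ido2 was at -0.73 and passed (edgeR adjusted p = 0.0266), as it did at -0.59 without both replicate 1 libraries (adjusted p = 0.0429). Il4i1, a secreted amino acid oxidase of immune cells that makes indole ligands, was higher at 0.94 ± 0.27 (edgeR adjusted p = 0.0281), from 0.460, 0.896 and 1.32 TMM CPM in Control to 0.946, 1.72 and 2.28 in iTgMir483 livers. The macrophage markers, whose summed level did not overlap between the groups, were higher in the same livers, and their part in the Il4i1 value was not tested. Il4i1 had only 8 to 25 reads per Control library and 13 to 32 per iTgMir483 library. Its call was lost when any of 5 of the 12 libraries was left out, and without a count filter (edgeR adjusted p = 0.0602).

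**Figure D4:**
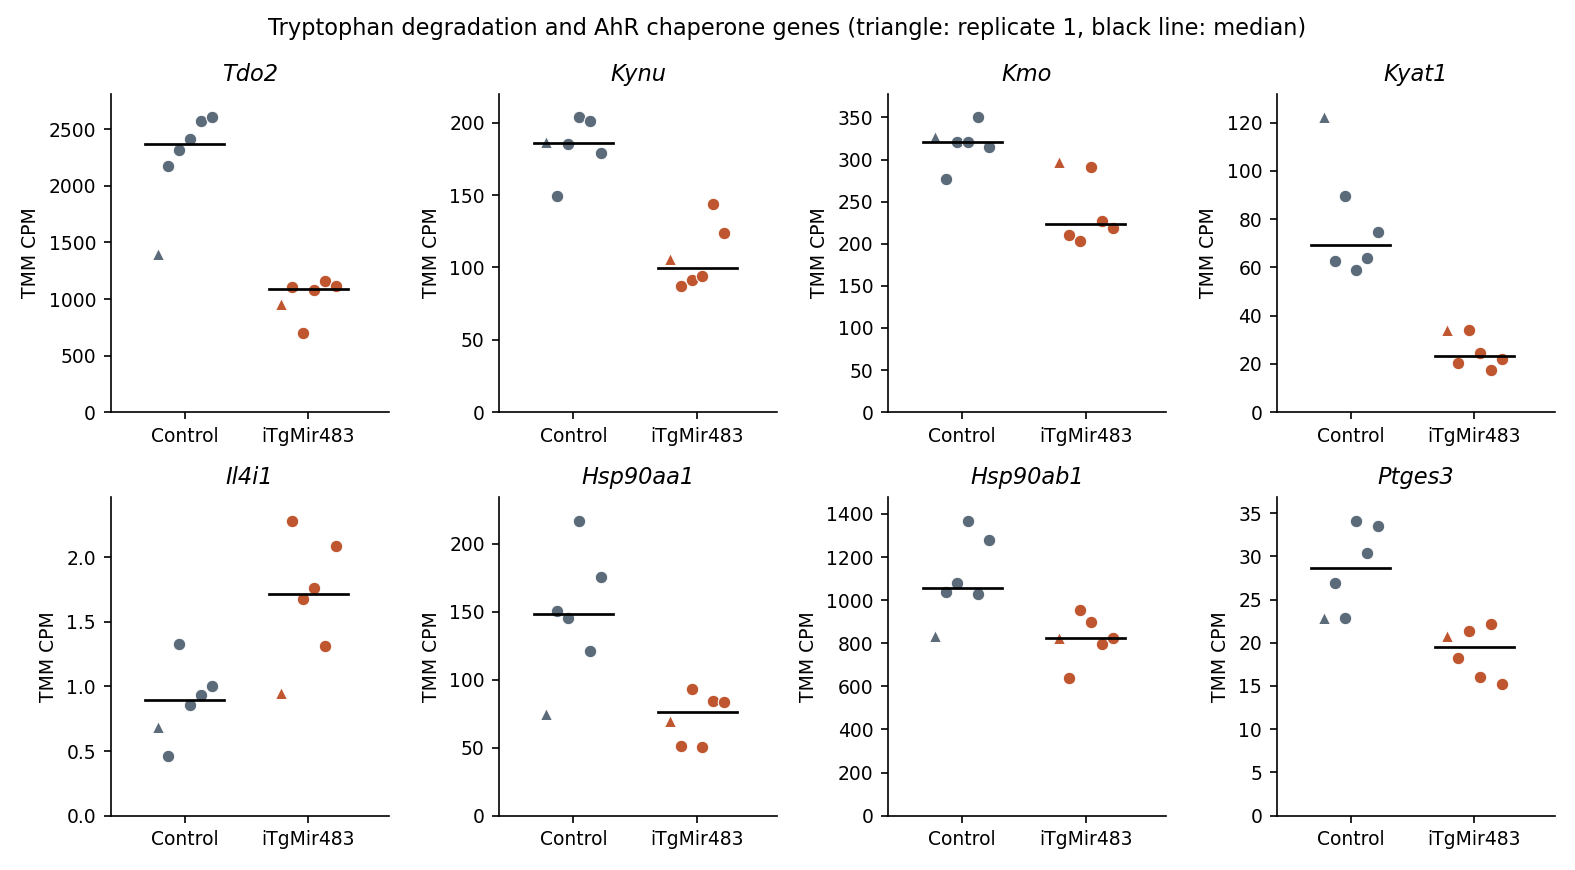
Level (y axis, TMM CPM, linear from 0) of tryptophan-degrading and chaperone genes that passed, in 6 Control and 6 iTgMir483 livers, with triangles for replicate 1 and a line at the median. Tdo2, Kynu, Kyat1 and Ptges3 have every iTgMir483 liver below every Control liver, and Il4i1 is the gene of the 8 that is higher.

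CYP1 enzymes need electrons from P450 reductase and a haem group. Of 11 genes for these, all tested, 1 was higher and 1 lower (median log2 fold change 0.00). Hmox1, which degrades haem, was at 17.6, 21.7 and 27.9 TMM CPM in Control and 30.1, 42.4 and 89.5 in iTgMir483 livers without overlap, a log2 fold change of 1.15 ± 0.24 (SE, n = 6 per group, edgeR adjusted p = 0.00556). Cpox, a late enzyme of haem synthesis, was lower by a log2 fold change of -0.53 ± 0.11 (edgeR adjusted p = 0.00503). Por, the reductase, had -0.30 ± 0.34 (95% interval -1.02 to 0.42) and did not pass. Alas1, the first enzyme of haem synthesis, had -0.81 ± 0.40 over all libraries (edgeR adjusted p = 0.174). Without both replicate 1 libraries it was at -0.88 and passed (edgeR adjusted p = 0.0474). Cyb5r3 and Ppox of the same list also passed there, as higher, at 0.48 (edgeR adjusted p = 0.0149) and 0.35 (adjusted p = 0.0373). Over all libraries they had 0.46 and 0.28 and did not pass (edgeR adjusted p = 0.0739 and 0.121).

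Transcription factors that set basal xenobiotic gene expression in hepatocytes and genes of the pericentral hepatocytes, where Cyp1a2 is made, were read beside the members. Of 7 such factors, 1 was lower and 0 higher (median log2 fold change -0.27). Nr1i3, which encodes the constitutive androstane receptor, fell from 811, 916 and 1216 TMM CPM in Control to 285, 390 and 577 in iTgMir483 livers without overlap, a log2 fold change of -1.27 ± 0.17 (SE, n = 6 per group, edgeR adjusted p = 0.000478). Hnf4a and Nr1i2 had -0.37 and -0.25 and did not pass, whereas without iTgMir483 replicate 4 they were at -0.49 and -0.51 and passed (edgeR adjusted p = 0.0455 and 0.0372). Of 10 pericentral genes, 2 were lower and 0 higher (median log2 fold change 0.00). Glul, glutamine synthetase of the innermost hepatocytes, had -0.62 ± 0.15 without overlap (edgeR adjusted p = 0.00974), and Cyp2e1 had -0.43 ± 0.14 (edgeR adjusted p = 0.0404), a call that was lost when any of 8 of the 12 libraries was left out. Oat, Axin2 and Lgr5, which also mark this zone, had -0.01, 0.32 and 0.29 and did not pass.

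**Figure D5:**
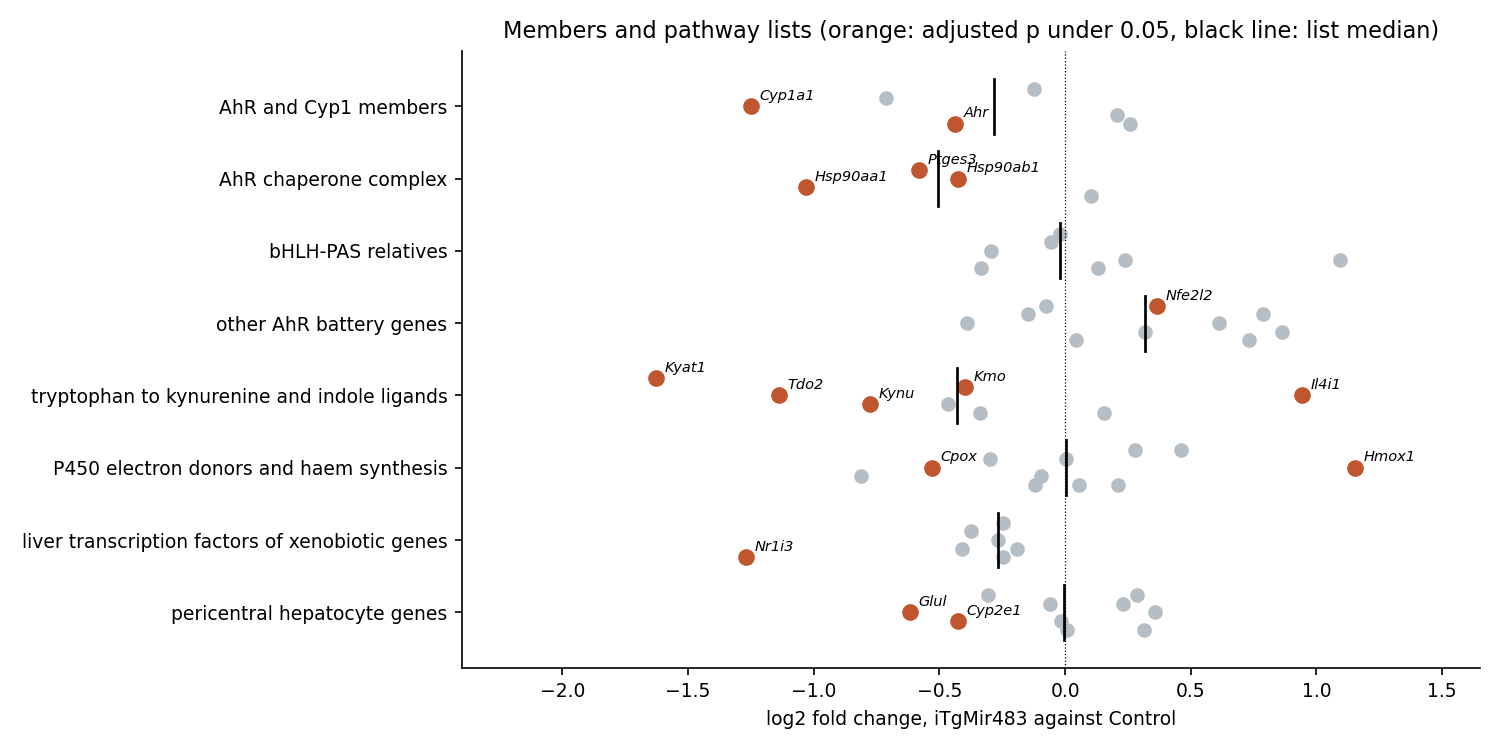
Log2 fold change (x axis, iTgMir483 against Control) of tested genes of the members and of the 7 lists (y axis), orange and named where the edgeR adjusted p was under 0.05, with a line at the median of each list. Of the pathway genes drawn, 3 orange points lie right of 0 and the others left of it, and 1 pathway gene is not drawn.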

How the data were processed

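For 12 liver libraries the authors deposited a table of raw counts, with Ensembl genes in rows. Their libraries were stranded and poly(A)-selected, and STAR was used for alignment of the paired-end reads to GRCm38. The strand column used is not given in the sources used here, so counts of overlapping and antisense genes, and of paralogs that share reads, are uncertain. Library totals were 12244123 to 30431286 counts, and counts carry no molecular identifiers, so that low counts such as those of Cyp1a1, Cyp1b1 and Ahrr limit precision. Groups and replicate numbers came from the sample titles, and 1 sequencing pool is named for all libraries, so no batch could be used.

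Symbols, positions and 3′ untranslated regions came from GENCODE M21 (GRCm38), with 55141 of 55401 identifiers matched to a symbol. Genes were filtered with filterByExpr, scaled by TMM and tested with the edgeR 4.0.16 quasi-likelihood F-test without covariates (R 4.3.3, limma 3.58.1). Benjamini-Hochberg adjustment ran over all 13205 genes. The fit was checked on simulated data with equal numbers of genes raised and lowered and no library set apart. That check does not cover libraries such as those of replicate 1. SE was taken as the absolute log2 fold change over the square root of F. Single genes were also compared on log2(TMM CPM + 0.5) with an exact permutation test, two-sided, which runs through all 924 ways to assign the mice and can reach p = 0.0022 at the smallest. As alternatives, DESeq2 1.42.0 and limma-voom replaced edgeR, RLE replaced TMM, the count filter was loosened or tightened, a fold threshold or the replicate block was added, the pseudocount or the CPM scaling was changed, and libraries were left out.

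Named genes were the members, genes of the 7 pathway lists where a list is described, cell type markers, and the 3 genes most like each member with a mean count of at least 50. The members and lists were chosen with earlier results of these data known, so no list gives independent support. A few genes covered by these rules stay in the counts but are not reported here. Small-RNA reads were not analysed here.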

Additional observations from a re-analysis of the deposited data

Results flagged for a closer look

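A library lay far from the others of its group in 7 of 56 group values tested (28 genes or marker sums in each group), where chance gives about 2.8. Each value below is the gap to the nearest other library divided by the range of the group. Cyp1a2 was flagged in Control replicate 1 (0.729, 962.8 TMM CPM against 194.8 to 403.2 in the other Control livers) and in iTgMir483 replicate 1 (0.661, 628.8 against 108 to 284.7), so that the highest Cyp1a2 value of each group was in its replicate 1 library. Nfe2l2 was flagged high in iTgMir483 replicate 1 (0.723, 127 against 82.1 to 94.6). Tdo2 was flagged low in Control replicate 1 (0.645, 1394 against 2177 to 2608), and so was Cpox (0.675, 157.5 against 194 to 211.5). The summed level of stellate cell and fibroblast markers was flagged high in Control replicate 5 (0.674, 440 against 321.9 to 360.4), and that of macrophage markers in iTgMir483 replicate 4 (0.672, 1255 against 436.5 to 705.2). The replicate 1 libraries hold 5 of the 7, and what sets them apart was not tested. In the headers of the count table they carry adjacent numbers, below those of all other libraries. Adjacent numbers also occur among the other libraries, and what the numbers stand for is not given in the sources used here.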

How the results depend on the processing

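The direction of Ahr, Arnt, Tiparp, Cyp1a1 and Cyp1a2 was the same under every alternative fit, whereas Cyp1b1 turned to 0.02 without Control replicate 5, 0.11 without iTgMir483 replicate 1 and 0.083 without both replicate 1 libraries. Leaving out 1 library gave log2 fold changes of -0.51 to -0.39 for Ahr, 0.14 to 0.29 for Arnt, -1.39 to -1.02 for Cyp1a1, -1.25 to -0.24 for Cyp1a2 and -0.29 to 0.11 for Cyp1b1, from 0 to 1 members higher and 1 to 3 lower, and from 1 to 7 pathway genes higher, with 7 without Control replicate 1 and 1 without Control replicate 4 or iTgMir483 replicates 2, 3 or 6. Ahr (-0.44) is under 1.5-fold, so that with that threshold 1 member and 7 pathway genes were lower. With at least 10 counts in every library 1 member was lower, because Cyp1a1 and Cyp1b1 were not tested. Without a count filter 1 pathway gene was higher, and without both replicate 1 libraries 8 were, with Cyp1a2 at -0.78. CPM from library totals moved the median of all tested genes to 0.14 on the log2 scale, and on it Ahr differed by -0.29 (exact permutation p = 0.0693) and Arnt by 0.34 (p = 0.0152). Samples with equal replicate numbers correlated at 0.47, 0.0252, 0.0452, 0.0285, 0.182 and 0.053 in their deviations from the group means, so the numbers were not taken as pairs. With the replicate block, Ahr was at -0.44 (edgeR adjusted p = 0.0523), Cyp1a1 at -1.22 (adjusted p = 0.043), Cyp1a2 at -0.80 (adjusted p = 0.00493), and 6 pathway genes were higher. The causes of these changes were not tested where none is named. DESeq2 and limma-voom called the same 2 members, Ahr and Cyp1a1. Depth limits Ahrr, Cyp1a1 and Cyp1b1 most, with 1 to 33 reads per library.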
